A study of Rattus norvegicus with 6 samples.

Results

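A set of 10 glutamate receptor genes was followed in RNA sequencing libraries of rat dorsal root ganglia, which lie beside the spinal cord and hold the cell bodies of sensory neurons. The set was drawn up by gene symbol and holds 5 kainate receptor genes (Grik1 to Grik5), 2 AMPA receptor genes (Gria2 and Gria4), the NMDA receptor gene Grin1 and 2 metabotropic receptor genes (Grm4 and Grm7). These are 10 of the 14346 genes that had a value in at least 1 library. All but Grik3 had a value in all 6 libraries, and Grik3 had one in 4. Ganglia came from rats 7 days after partial sciatic nerve ligation (pSNL, 3 libraries), in which part of the sciatic nerve is tied off, or after sham surgery (3 libraries). The labels give neither strain, sex, age nor spinal level. They also do not tie a library to its own animal, so the p-values reflect only how far these libraries spread, and that spread may be technical.

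Glutamate is the main fast transmitter released by sensory neurons, and their cell bodies and terminals carry receptors for it as well. Kainate, AMPA and NMDA receptors are cation channels built of 4 subunits. In the kainate family the products of Grik1, Grik2 and Grik3 can form channels on their own, whereas those of Grik4 and Grik5 need a partner from the first group. The product of Grin1 is present in every NMDA receptor and pairs with those of Grin2a to Grin2d or of Grin3a and Grin3b. The edited product of Gria2 makes AMPA receptors nearly impermeable to calcium. Grm4 and Grm7 encode group III metabotropic receptors, which act through inhibitory G proteins and damp transmitter release.

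The libraries held 4310643 to 4416121 estimated counts. As a check of the labels, the injury-induced transcription factor Atf3 was at 11.5 to 22.8 CPM (counts scaled to library size) in sham and at 97.6 to 294 CPM in pSNL, and Gap43, Gal and Sox11 also did not overlap between groups. Of the pSNL libraries, replicate 1 had the lowest Atf3. Sham replicate 3 stood apart. Its 16 astrocyte and oligodendrocyte markers summed to 2509 CPM, against 62.9 to 95.9 CPM in the other 5 libraries. In that library 15 of the 16 were at least 1.5-fold above the highest other library, and the remaining one, Gpr17, had counts there alone. Its 12 spinal cord neuron markers summed to 218 CPM, against 13.6 to 18.1 CPM. In sham replicate 3, 4 of them (Slc6a5, Gad1, Slc5a7 and Pax2) were at least 1.5-fold above the highest other library. Slc32a1, Gad2, Lhx1, Lbx1 and Neurod2 had counts in it alone. Lmx1b had no value in any library, Tfap2b had none in sham replicate 3, and Slc17a8 was lowest in that library (1.61 CPM). The vesicular GABA transporter Slc32a1, an inhibitory neuron gene of the central nervous system, had 265 counts there and none elsewhere. The 12 pan-neuronal genes had a value in all 6 libraries and summed to 15730 CPM in sham replicate 3 and to 17520 to 18880 CPM in the others. This list is not particular to sensory neurons, and its genes moved in different directions between groups, as given below. Because sham replicate 3 stood apart, the tests of the 9 tested genes of the set are given with and without it. In a whole ganglion, fewer cells of a type and less RNA per cell cannot be told apart.

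Levels of different genes were compared as FPKM, which is corrected for gene length. Grin1 had the highest level in sham, with 47.8, 43.98 and 62.9 FPKM in sham replicates 1, 2 and 3, followed by Grik1 with 34.1, 37.4 and 33.6 FPKM. Grik5 came next at 16.1 to 20.7 FPKM. These 3 genes did not overlap each other in sham. Below them, Grik4 (9.43 to 12.6 FPKM) overlapped Gria4 (5.85 to 16.15 FPKM), and Gria4 overlapped Grm4 (7.75 to 10.1 FPKM). Sham replicate 3 set the top of the Gria4 range. Without that library, Gria4 was at 5.85 and 6.23 FPKM, below Grm4 and within the range of Grm7. Gria2 (3.29 to 8.0 FPKM) and Grik2 (1.47 to 3.54 FPKM) were lower, and Grik3 was at 0 to 0.12 FPKM. In pSNL the order was the same at both ends, but Grin1 (34.0 to 45.4 FPKM) and Grik1 (22.7 to 38.6 FPKM) overlapped.

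**Figure D1:**
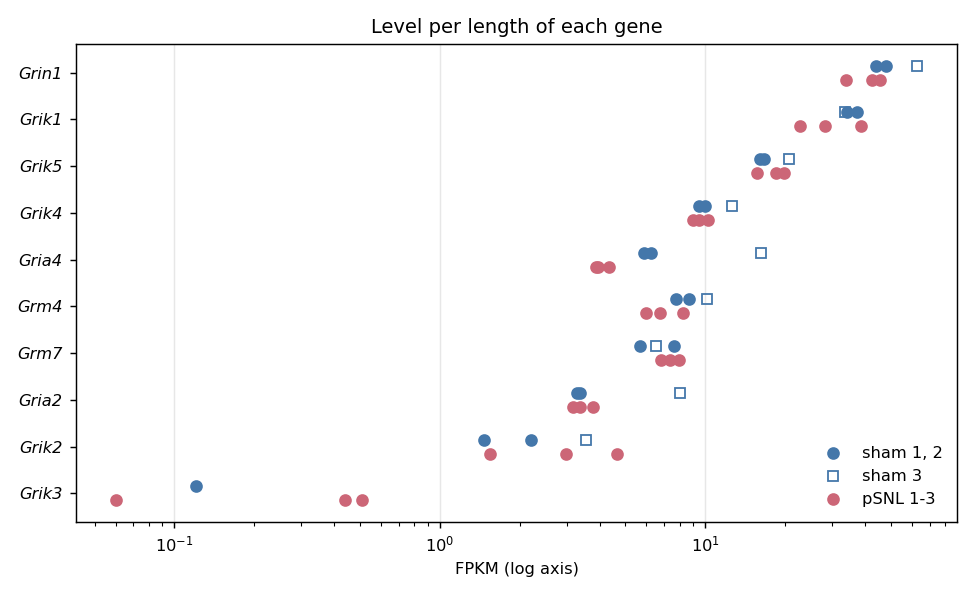
Level per length of the 10 genes in each library, in FPKM on a log axis, with filled points for sham replicates 1 and 2 (blue) and pSNL (red) and open squares for sham replicate 3; values of 0 are left out. Grin1 and Grik1 lie at the top and Grik3 at the bottom, and the sham replicate 3 square of Gria4 lies at 16.15 FPKM, apart from 3.89 to 6.23 FPKM in the other libraries.

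The promoters of the 2 genes with the highest level and of the one with the lowest are shown to set this range of levels beside the DNA in front of each gene. The sequences are the 250 bases before the RefSeq start of the gene in the build GRCr8, read 5′ to 3′ on the gene's strand, with CG dinucleotides in capitals. Grin1 is on chr3:28528755-28529004 (minus strand), Grik1 on chr11:41056504-41056753 (minus strand) and Grik3 on chr5:143052192-143052441 (plus strand). The table held 8 of the 10 genes.
Grin1: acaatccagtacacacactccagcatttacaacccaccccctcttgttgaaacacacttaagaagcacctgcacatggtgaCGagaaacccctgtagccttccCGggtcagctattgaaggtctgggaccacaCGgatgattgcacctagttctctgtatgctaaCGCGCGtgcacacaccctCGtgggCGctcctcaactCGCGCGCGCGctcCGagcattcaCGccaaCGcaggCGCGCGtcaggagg
Grik1: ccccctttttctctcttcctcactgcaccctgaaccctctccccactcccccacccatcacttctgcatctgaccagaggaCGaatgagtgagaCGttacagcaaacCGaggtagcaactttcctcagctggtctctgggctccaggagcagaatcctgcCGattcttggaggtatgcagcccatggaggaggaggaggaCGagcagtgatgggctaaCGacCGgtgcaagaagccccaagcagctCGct
Grik3: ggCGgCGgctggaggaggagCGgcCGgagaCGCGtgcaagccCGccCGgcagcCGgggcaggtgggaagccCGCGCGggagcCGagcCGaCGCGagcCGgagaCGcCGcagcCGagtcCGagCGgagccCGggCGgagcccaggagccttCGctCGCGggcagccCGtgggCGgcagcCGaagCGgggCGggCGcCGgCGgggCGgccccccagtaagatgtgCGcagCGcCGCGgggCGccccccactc

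The Grik3 window held 41 CG dinucleotides, a number reached by 0.98% of all 33469 promoters in the table, whereas that of Grin1 held 19 and that of Grik1 held 8. The median promoter held 5. The GC box GGGCGG, searched on both strands, occurred 5 times in the Grik3 window and not in those of Grin1 or Grik1; 30.5% of all promoters held at least 1. Of these 3 genes, picked for their levels, the one with the most CG dinucleotides in its window was at the lowest level in the ganglion. The windows of Gria4, Grik5, Grm7, Grik2 and Grik4 held 14, 10, 9, 5 and 3. Grin1, with the highest level, thus held more than each of these, and Grik2, with a low level, held few. Across the genes in the table, CG number and level did not follow one order. Which start site the ganglion uses was not tested.

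Grik1 encodes the kainate subunit GluK1, known as the main one of small-diameter sensory neurons. It was at 113, 124 and 108 CPM in sham replicates 1, 2 and 3 and at 124, 74.4 and 93.6 CPM in pSNL replicates 1, 2 and 3. Replicates 2 and 3 of pSNL were below every sham library, while pSNL replicate 1 was level with the highest sham library. The log2 fold change of pSNL over sham was -0.24 ± 0.17 (SE; edgeR adjusted p = 0.545), and -0.29 ± 0.19 without sham replicate 3. Without pSNL replicate 1 it was -0.45, and without pSNL replicate 2 it was -0.084, moves of over 1.5 times in opposite directions, neither past the threshold (edgeR adjusted p = 0.130 and 0.869).

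Grik2 encodes GluK2, the kainate subunit best known from the brain. It was at 6.88, 4.59 and 10.8 CPM in sham and at 9.08, 14.3 and 4.82 CPM in pSNL, replicates 1, 2 and 3 in turn. The groups overlapped fully, and the highest library, pSNL replicate 2, rested on 62 counts (95% exact Poisson interval 47.5 to 79.5) against 20 counts (12.2 to 30.9) in sham replicate 2. Its log2 fold change was 0.34 ± 0.43 (SE; edgeR adjusted p = 0.754), 0.71 ± 0.44 without sham replicate 3 and -0.10 without pSNL replicate 2. Grik3, which encodes GluK3, was below the low-count filter of edgeR and was not tested there. It had 2, 0 and 0 counts in sham and 8, 7 and 1 counts in pSNL. The pSNL to sham ratio over these 16 and 2 counts was 8.01 (95% exact counting interval 1.88 to 71.8), and 5.38 (1.27 to 48.3) without sham replicate 3. DESeq2 tested Grik3 and did not call it (log2 fold change 2.98 ± 1.64, SE; DESeq2 adjusted p = 0.506). Without sham replicate 3 its DESeq2 log2 fold change was 2.40 (unadjusted p = 0.138, no adjusted p). Taking 3 counts as the limit that a count of 0 allows, a library at 0 could hold up to 0.696 CPM. The upper end of the 95% exact Poisson interval is higher, at 3.69 counts. This is 0.837 and 0.856 CPM in sham replicates 2 and 3, per plain library size. All intervals on counts cover counting error only.

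Grik4 and Grik5 encode the high-affinity subunits GluK4 and GluK5. Grik5 was at 64.2, 62.0 and 78.1 CPM in sham and at 59.0, 75.8 and 71.1 CPM in pSNL. Its group means were 68.1 ± 8.76 and 68.7 ± 8.66 CPM (SD, n = 3 each), and its log2 fold change was 0.01 ± 0.13 (SE; edgeR adjusted p = 0.976), and 0.12 ± 0.13 without sham replicate 3. Grik4 was at 31.9, 33.7 and 41.8 CPM in sham and at 31.3, 34.2 and 30.5 CPM in pSNL. Sham replicate 3 was its highest library, and the other 5 lay within 30.5 to 34.2 CPM. The log2 fold change of Grik4 went from -0.16 ± 0.14 to -0.04 ± 0.14 without that library (edgeR adjusted p = 0.616 and 0.927).

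**Figure D2:**
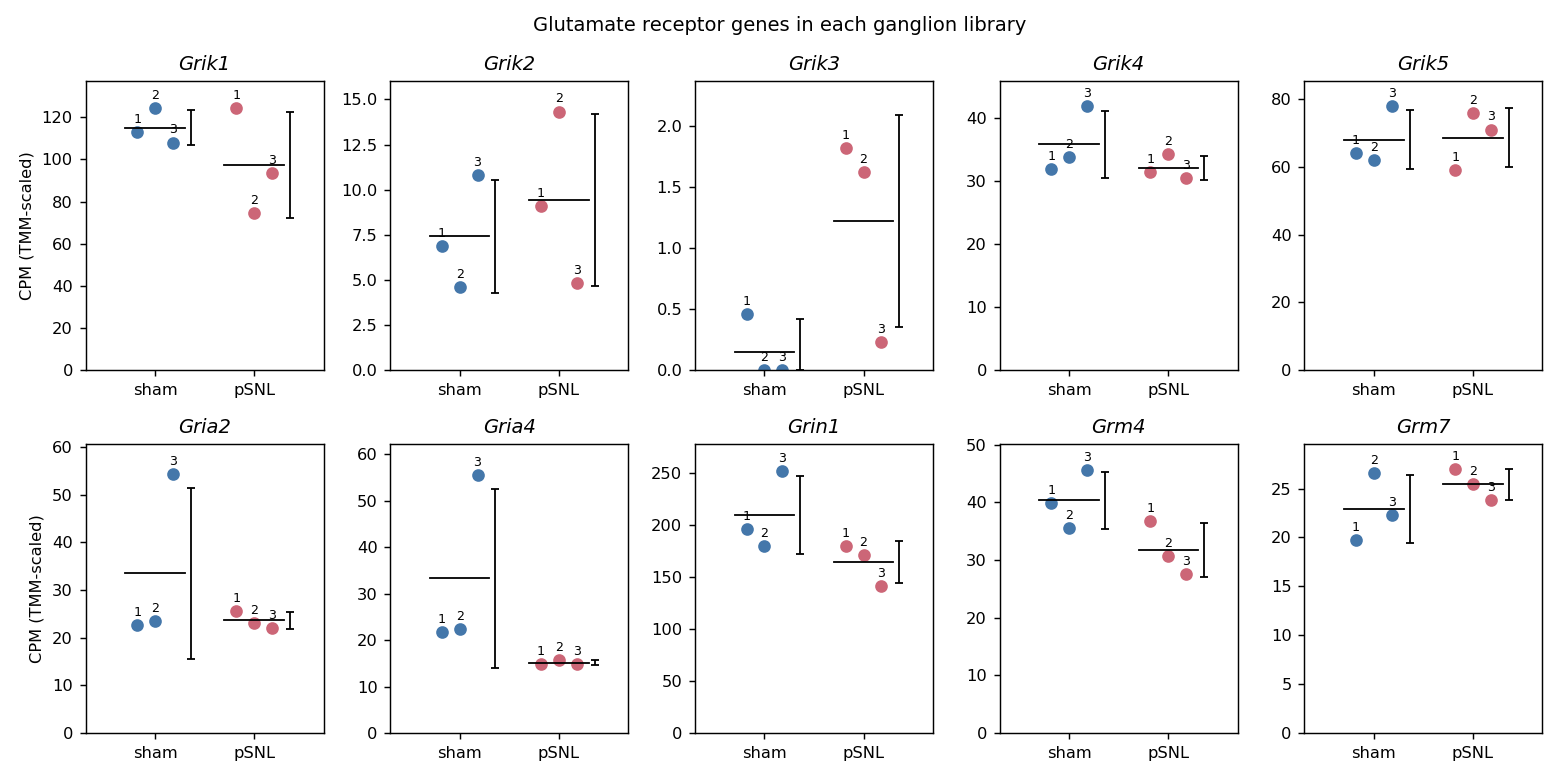
CPM of the 10 genes in each library (blue sham, red pSNL; digits are replicate numbers), with group means as lines and the SD as bars, each panel with its own axis from 0. The pSNL points of Gria4 all lie below its sham points, those of Grin1 do so on this TMM scale by less than 1 CPM and not on plain library size, and Gria2 and Gria4 are high in sham replicate 3 (54.2 and 55.6 CPM).

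Within the kainate family, the share of each subunit in the summed FPKM of all 5 genes described the composition in each library. Grik1 made up 54.6%, 57.6% and 47.7% in sham replicates 1, 2 and 3 and 57.4%, 39.25% and 49.3% in pSNL replicates 1, 2 and 3. Grik5 made up 24.75% to 29.35% in sham and 23.3% to 34.3% in pSNL, and Grik4 14.1% to 17.9% over all 6 libraries. Grik1 had the largest share in every library. The means for Grik1 were 53.3 ± 5.08% in sham and 48.6 ± 9.08% in pSNL (SD, n = 3 each), and the groups overlapped. The summed level of Grik1 to Grik3, which can form channels alone, was 1.115 to 1.49 times that of Grik4 and Grik5 in sham and 0.924 to 1.67 times in pSNL. The lowest ratio was that of pSNL replicate 2, and the highest that of pSNL replicate 1.

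**Figure D3:**
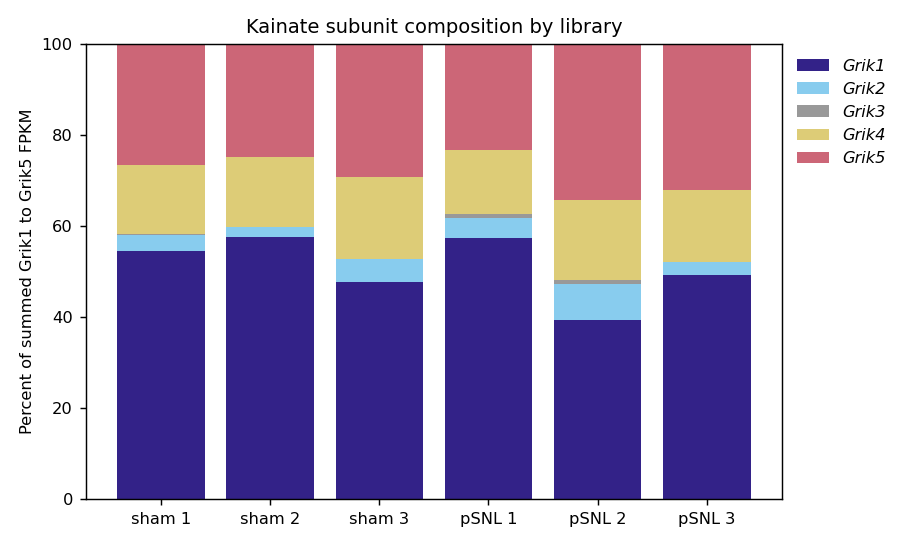
Percent of the summed Grik1 to Grik5 FPKM taken by each gene in the 6 libraries. Grik1 takes the largest part everywhere, from 39.25% in pSNL replicate 2 to 57.6% in sham replicate 2, and Grik3 at most 0.761%.

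Gria4, which encodes the AMPA subunit GluA4, had the largest log2 fold change of the 9 tested genes with all 6 libraries; without sham replicate 3 that of Grik2 was larger. It was at 21.8, 22.5 and 55.6 CPM in sham replicates 1, 2 and 3 and at 14.8, 15.7 and 14.9 CPM in pSNL replicates 1, 2 and 3. Every pSNL library was below every sham library, and the pSNL libraries lay within 1 CPM of each other. The log2 fold change was -1.14 ± 0.39 (SE) and missed the threshold of 0.05 (adjusted p = 0.249 in edgeR's quasi-likelihood test). Without sham replicate 3 the groups still did not overlap, and the log2 fold change was smaller, at -0.55 ± 0.17 (edgeR adjusted p = 0.173). DESeq2 called Gria4 with all 6 libraries (adjusted p = 0.0362) and did not without sham replicate 3 (adjusted p = 0.470).

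Gria2 was at 22.7, 23.4 and 54.2 CPM in sham and at 25.7, 23.1 and 22.0 CPM in pSNL. Apart from sham replicate 3, the libraries of both groups covered the same narrow range. The log2 fold change was -0.50 ± 0.35 with all libraries and 0.03 ± 0.16 without sham replicate 3 (SE; edgeR adjusted p = 0.546 and 0.954), so its direction turned. Gria2 and Gria4 were the only members at least 1.5-fold above the highest other library in sham replicate 3, at 2.11 and 2.47 times; 2.81% of all tested genes were. This fold was chosen after the values were seen.

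The ratio of Gria4 to Gria2 FPKM within a library was 1.78, 1.84 and 2.02 in sham replicates 1, 2 and 3 and 1.03, 1.28 and 1.24 in pSNL replicates 1, 2 and 3. Here sham replicate 3 was close to the other sham libraries, and the groups did not overlap. Sham replicate 3 held 2.35 times the mean of sham replicates 1 and 2 for Gria2 and 2.51 times for Gria4. Its ratio therefore also reflects this excess, in a library with central tissue transcripts, and is not a clean repeat of the ganglion ratio. The source of the excess was not tested. Gria4 made up 47.2% to 52.5% of the summed FPKM of the 4 AMPA genes in sham and 31.6% to 38.9% in pSNL, and Gria2 25.6% to 26.95% and 29.55% to 31.5%. Reads of the AMPA genes are partly shared by the authors' estimate. In 3 libraries the counts of Gria2 and Gria4 were fractions that added to a whole number, so the split between both genes is uncertain to some extent.

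Grin1 was at 196, 179.9 and 252 CPM in sham and at 179.8, 171 and 142 CPM in pSNL, replicates 1, 2 and 3 in turn. The groups met at sham replicate 2 and pSNL replicate 1, which differed by less than 1 CPM. Their order turned with the scaling: pSNL replicate 1 was the lower one on the TMM-scaled sizes used here and the higher one per plain library size (182.1 against 178 CPM) and in FPKM (45.37 against 43.98), so that the groups then overlapped. The log2 fold change was -0.35 ± 0.14 (SE; edgeR adjusted p = 0.272), and -0.20 ± 0.11 without sham replicate 3 (adjusted p = 0.443). The partner subunits were low. The summed FPKM of Grin2a to Grin2d was 0.64 and 0.74 in sham replicates 1 and 2 and 0.43 to 0.61 in pSNL, so Grin1 was 59.4 to 79.1 times as high as all 4 together. In sham replicate 3 the sum was 6.52 FPKM and the ratio 9.65. Grin3b, whose product forms receptors with little calcium flow, was at 2.8 to 3.48 FPKM in all 6 libraries and exceeded the Grin2 sum in each except sham replicate 3.

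Grm4 was at 39.9, 35.6 and 45.5 CPM in sham and at 36.8, 30.7 and 27.5 CPM in pSNL. Only pSNL replicate 1 reached into the sham range. The log2 fold change was -0.35 ± 0.15 (SE; edgeR adjusted p = 0.299) and -0.26 ± 0.15 without sham replicate 3. Grm7 was at 19.7, 26.6 and 22.3 CPM in sham and at 27.0, 25.4 and 23.9 CPM in pSNL. These ranges overlapped, and the log2 fold change was 0.15 ± 0.15 (SE; edgeR adjusted p = 0.666) and 0.13 ± 0.17 without sham replicate 3. Summed over Grm4, Grm6, Grm7 and Grm8, the group III receptors were at 16.8 to 20.9 FPKM over the 6 libraries, whereas the group II receptors (Grm2 and Grm3) were at 0.13 to 0.53 FPKM outside sham replicate 3 and at 4.15 FPKM in it.

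Across the set, no call was made by edgeR among the 9 tested genes, where 0.46% of the 11091 tested genes were called. The injury genes Atf3 and Gal, with log2 fold changes of 3.64 and 4.11, also missed the threshold (edgeR adjusted p = 0.0891 for both). Sox11 and Gap43 were called (edgeR adjusted p = 0.024 and 0.0416). A missing call in this fit therefore does not show that a gene was unchanged. Of the 9 tested genes, 3 had an unadjusted p under 0.05 (Gria4, Grin1 and Grm4), all lower in pSNL, where 15.5% of all tested genes were in either direction and 6.07% lower in pSNL. Without sham replicate 3 this left 1 (Gria4), against 6% lower in pSNL, and edgeR again called none of the 9, against 0.293% of all genes. DESeq2 called 1 of 10 (Gria4), where it called 2.59% of genes; without sham replicate 3 it called none of the 9 with an adjusted p, against 1.82%, with 1 at an unadjusted p under 0.05. All pSNL libraries were below all sham libraries for 2 of the 9 (Gria4 and Grin1), as they were for 10.4% of all tested genes, and 17% without sham replicate 3. For Grin1 this held on the TMM-scaled CPM and not per plain library size or in FPKM, with or without sham replicate 3. The median log2 fold change was -0.24, with 6 of 9 genes negative, where 50.6% of all tested genes were negative. Without sham replicate 3 the median was -0.04 and 5 of 9 were negative, where 48.9% of all genes were. The median of all tested genes was -0.0024 and 0.0069 in these fits.

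**Figure D4:**
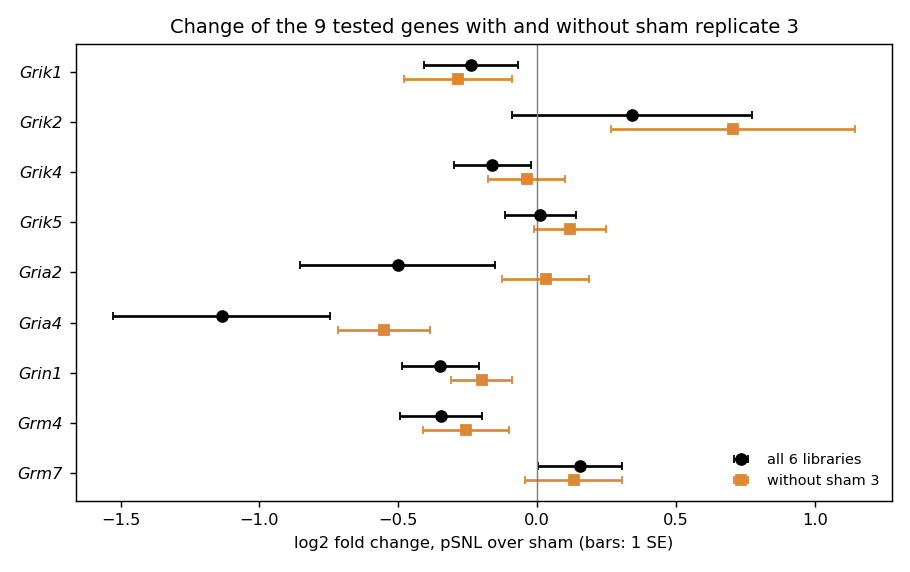
Log2 fold change of pSNL over sham for the 9 tested genes with all 6 libraries (black circles) and without sham replicate 3 (orange squares), with 1 SE as bars. Gria4 moves from -1.14 to -0.55 and Gria2 from -0.50 to 0.03, while Grik1 stays at -0.24 and -0.29.

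A further 14 glutamate receptor genes were taken for comparison; 13 had a value in some library, 6 were tested, and edgeR called none, nor did any have an unadjusted p under 0.05. Their median log2 fold change was -0.11, and -0.07 without sham replicate 3. That library was again apart. Grin2c, an NMDA subunit of cerebellum and glia, had 66 counts in it and 1 in the other 5 libraries together, a ratio of 336 (95% exact counting interval 58.2 to 13457). The metabotropic receptor gene Grm3, known from astrocytes, had 58 counts there and 16 in the other 5 libraries (ratio 18.4, 10.5 to 34.4). Grin2d was at 2.52, 3.21 and 14.9 CPM in sham and at 2.95, 1.62 and 1.61 CPM in pSNL, and its log2 fold change went from -1.73 to -0.47 without sham replicate 3 (edgeR adjusted p = 0.333 and 0.689). DESeq2 called Grm3 lower in pSNL (adjusted p = 0.0448), which edgeR did not test. Without sham replicate 3 that call was lost (DESeq2 log2 fold change from -3.52 to -1.33, unadjusted p = 0.318, no adjusted p). In sham replicates 1 and 2 Grm3 was at 1.83 and 0.459 CPM, and in pSNL at 0.454 to 0.462 CPM, so its groups overlapped.

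Sham replicate 3 was not apart for Grm8, a further group III receptor, at 14.7, 8.72 and 7.58 CPM in sham and at 12.7, 9.02 and 11.5 CPM in pSNL, or for Grin3b, at 9.64 to 11.03 and 8.85 to 10.2 CPM. Gria3 was highest in sham replicate 3 (26.4 CPM, against 10.9 to 16.5 CPM). The AMPA gene Gria1 was at 1.15 to 4.14 CPM in sham and at 1.15 to 4.85 CPM in pSNL, and Grin3a at 0.688 to 1.84 and 0.917 to 2.50 CPM. The delta receptor gene Grid1 (15.1 to 25.7 CPM over all libraries) was highest in sham replicate 3. All of these overlapped between groups.

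**Figure D5:**
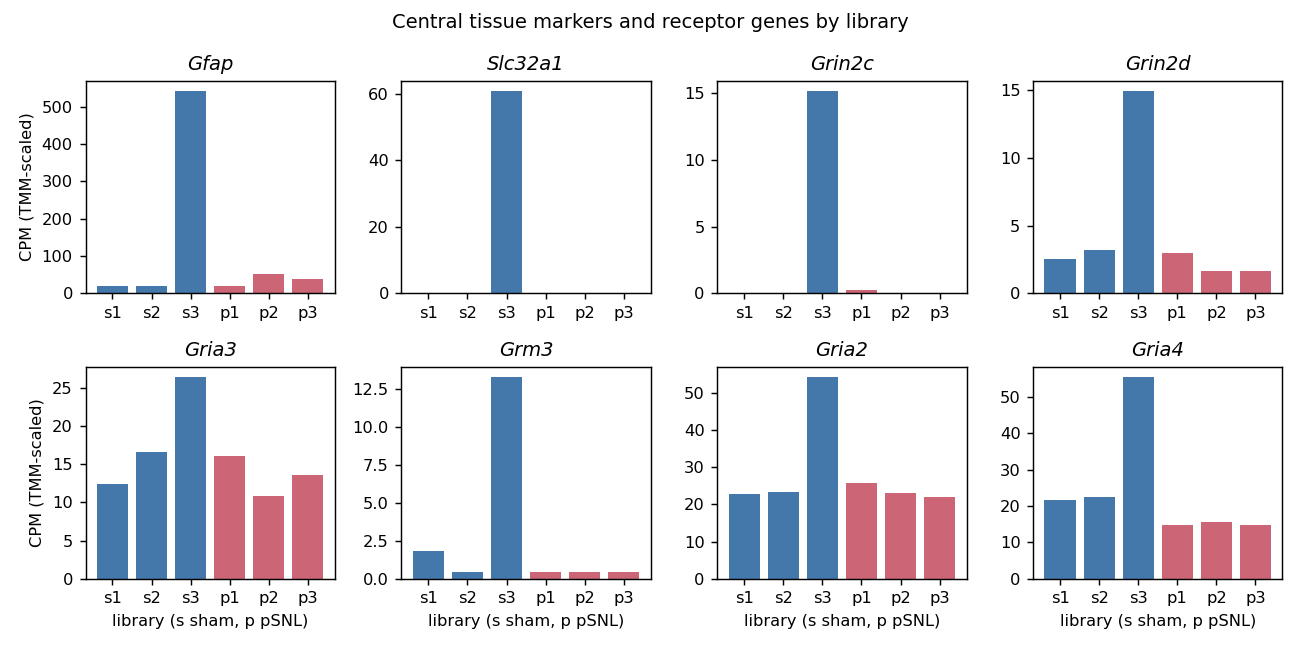
CPM in each library (s sham, p pSNL, with the replicate number) of the central markers Gfap and Slc32a1 and of 6 receptor genes, each panel with its own axis from 0. Sham replicate 3 is the highest bar in every panel, from 13.3 CPM for Grm3 to 542 CPM for Gfap.

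Proteins that bind these receptors were taken from 3 further lists. Of 11 tested auxiliary subunits and assembly factors, neither edgeR nor DESeq2 called any, with or without sham replicate 3 (2 had an unadjusted p under 0.05 in edgeR in both fits, beside 15.5% of all genes with all 6 libraries). Their median log2 fold change was -0.0083. Cacng4, an AMPA receptor partner of the TARP family, was at 9.86, 12.9 and 12.2 CPM in sham and at 15.4, 17.3 and 15.6 CPM in pSNL (edgeR adjusted p = 0.260, and 0.307 without sham replicate 3), and these did not overlap. The acyltransferase gene Porcn was at 35.1 to 45.3 and 29.6 to 33.3 CPM (adjusted p = 0.314, and 0.554 without sham replicate 3, where its log2 fold change went from -0.31 to -0.19). Shisa7 was at 5.73, 6.20 and 13.6 CPM in sham and at 10.2, 12.9 and 12.4 CPM in pSNL, so that its groups overlapped only through sham replicate 3. Without that library its log2 fold change went from 0.48 to 0.98 (edgeR adjusted p = 0.519 and 0.123). Abhd6 was at 35.8 to 48.7 and 35.4 to 38.6 CPM (adjusted p = 0.586), and its log2 fold change went from -0.17 to -0.28 without sham replicate 3 (adjusted p = 0.361). The kainate receptor partner Neto2 was at 6.88 to 11.5 and 8.49 to 11.4 CPM.

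Among 19 tested scaffold and trafficking genes edgeR called none, 5 had an unadjusted p under 0.05 (15.5% of all tested genes did), and the median log2 fold change was -0.12, or -0.00061 without sham replicate 3. Dlg4, which encodes the postsynaptic scaffold PSD-95, was at 207, 208 and 248 CPM in sham and at 145, 173 and 144 CPM in pSNL. Its log2 fold change was -0.52 ± 0.11 (SE; edgeR adjusted p = 0.0642) and -0.43 without sham replicate 3 (adjusted p = 0.104). It was the 1 gene of the list called by DESeq2, with all libraries (adjusted p = 0.00291) and without sham replicate 3 (adjusted p = 0.047). Of all genes, DESeq2 called 2.59% and 1.82% in these fits. Dlgap3, which binds PSD-95, was at 89.2 to 98.6 CPM in sham and 57.3 to 78.9 CPM in pSNL (edgeR adjusted p = 0.130, and 0.154 without sham replicate 3). Nsf, an ATPase of vesicle fusion that also binds the Gria2 product, was at 525 to 568 and 403 to 521 CPM (adjusted p = 0.251, and 0.323 without sham replicate 3).

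Dlgap4 and Grip1, a PDZ protein that binds the tails of AMPA subunits, went the other way. Dlgap4 was at 54.6, 63.8 and 71.5 CPM in sham and at 67.4, 84.6 and 79.6 CPM in pSNL. Its log2 fold change was 0.29 (edgeR adjusted p = 0.314), and 0.38 without sham replicate 3 (adjusted p = 0.228), where its groups did not overlap. Grip1 was at 15.8, 16.8 and 14.7 CPM in sham and at 26.3, 29.1 and 21.1 CPM in pSNL, without overlap (log2 fold change 0.69 ± 0.16, SE; edgeR adjusted p = 0.0891). Without sham replicate 3 its log2 fold change was 0.64 (adjusted p = 0.154). Its relative Grip2 was at 3.44, 3.44 and 24.1 CPM in sham and at 2.95, 2.08 and 3.21 CPM in pSNL, with sham replicate 3 far above the rest. The RNA-editing enzymes Adar (33.3 to 51.6 CPM over all libraries) and Adarb1, which edits the Gria2 transcript, were called by neither edgeR nor DESeq2 and had no unadjusted p under 0.05 in either, with all 6 libraries. Adarb1 was at 78.6, 79.4 and 144 CPM in sham and at 99.9, 98.7 and 84.6 CPM in pSNL; without sham replicate 3 its groups did not overlap (edgeR adjusted p = 0.326).

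Markers of the neurons that could carry these receptors are given for comparison. The 12 large myelinated sensory neuron markers summed to 42420, 43980 and 34940 CPM in sham replicates 1, 2 and 3 and to 31140 to 35020 CPM in pSNL, so that the groups overlapped only through sham replicate 3. The neurofilament genes Nefh, Nefm and Nefl made up most of this sum (11837, 14396 and 13404 CPM in sham replicate 1), and Cntnap2 had no value in any library. Of the 11 tested markers, edgeR's log2 fold change was below 0 for 8 and above 0 for 3 (Spp1, Calb1 and Runx3). The 7 peptidergic nociceptor markers summed to 2559, 2700 and 1657 CPM in sham and to 2256, 1677 and 1957 CPM in pSNL, and the 8 non-peptidergic ones to 1061 to 1206 and 931 to 1226 CPM. In these 3 lists edgeR called none of the 11, 7 and 7 tested markers, of which 6, 3 and 1 had an unadjusted p under 0.05, beside 15.5% of all tested genes. DESeq2, which called 2.59% of all genes, called 3 large neuron markers lower (Nefl, Vsnl1 and Etv1) and 1 peptidergic marker higher (Adcyap1). Without sham replicate 3 edgeR called Nefl lower (adjusted p = 0.045), and DESeq2, which then called 1.82% of all genes, called Nefl, Vsnl1, Etv1 and Adcyap1 again and added Nefh, Nefm and the peptidergic marker Calca, all lower (adjusted p = 0.0393, 0.000558 and 0.0196). Of the 12 pan-neuronal genes edgeR called none in either fit, and 6 had an unadjusted p under 0.05 with all libraries. All pSNL libraries were below all sham libraries for Rbfox3, Snap25 and Syp, and above them for Stmn2 and Tubb3. DESeq2 called Snap25 and Syp lower and Stmn2 higher (adjusted p = 6.5e-05, 0.0292 and 0.0215). Without sham replicate 3 it called Snap25 lower and Nsg1 higher (adjusted p = 0.00424 and 0.0313). Among the glial lists, the 8 satellite glia markers summed to 1739, 1646 and 2952 CPM in sham and 1476 to 1656 CPM in pSNL. Sham replicate 3 was the highest. Slc1a3, Gja1, Glul, Aldoc and Fabp7 were at least 1.5-fold above the highest other library in it, as were 2.81% of all tested genes. Cdh19 and Cnn3 were lowest in it. As sham replicate 3 carries central tissue transcripts, its sum is not a clean measure of ganglion glia. The 8 Schwann cell myelin markers summed to 17550 to 21240 CPM in sham and 19850 to 31030 CPM in pSNL. Sham replicate 3 set the top of the sham range, and Mbp and Mag were highest in it. In both lists edgeR called none of 8, with 3 and 4 at an unadjusted p under 0.05, and called none without sham replicate 3 (4 and 3 at an unadjusted p under 0.05). DESeq2 called the satellite glia markers Cdh19 higher and Fabp7 lower with all libraries and neither without sham replicate 3. It called the Schwann cell markers Prx and Drp2 higher in both fits. Of the 8 Schwann cell markers, edgeR's log2 fold change was above 0 for 6, and for 8 without sham replicate 3. In the peptidergic and large neuron sums, as for Grik1, pSNL replicate 2 was the lowest pSNL library and pSNL replicate 1 the highest. This order was thus not particular to the peptidergic markers, and not all of them followed it. Adcyap1 (64.7, 93.6 and 99.8 CPM in pSNL replicates 1, 2 and 3) and Gfra3 (103, 128 and 127 CPM) were lowest in pSNL replicate 1. The part of cell makeup in the values of Grik1, Gria4 and Grin1 was not tested.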

How the data were processed

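Per the labels, RNA was extracted from frozen ganglia by Trizol, and total RNA went into a BGISEQ-500 library kit. Per the submitters' processing notes, CASAVA 1.4 and Bowtie2 were used; quantifier, genome build, annotation and strand use were not given in the sources used here. Each deposited file gives, per the file headers, an expected count estimated by the authors, an FPKM value computed by the authors from it, and a length in bases per gene. Genes without a value in a file were taken as 0. A RefSeq table of GRCr8 gave the symbol of 14227 of the 14346 identifiers by gene ID and of 16 by transcript accession.

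Expected counts were rounded and tested with edgeR 4.0.16 in R 4.3.3 (TMM factors, default low-count filter, robust quasi-likelihood fit, Benjamini-Hochberg adjustment over 11091 genes, threshold 0.05), after a test on simulated data. SE came from the test statistic. CPM is on TMM-scaled sizes, and 3 counts are 0.679 to 0.696 CPM. FPKM was used as deposited for levels and shares. Alternatives were DESeq2 1.42.0, other scaling, no filter, a replicate block and each library left out; plain library size and DESeq2 without sham replicate 3 were added after seeing the data. Reads carry no molecular identifiers. Some further receptor genes are not reported here. The members and lists were chosen with earlier results of these data known. Named genes were all 10 members, the other receptor genes with a value in all 6 libraries or a group mean of at least 1 CPM, up to 4 genes with the smallest p per partner list, up to 4 per marker list with the highest CPM (sums are given instead), 4 injury genes and any gene behind a count of 5 or fewer, except counts at an unadjusted p in the marker lists. Neto2, Grip2, Gpr17, Slc32a1 and the single markers named for their level in sham replicate 3 were added after their values were seen.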

Additional observations from a re-analysis of the deposited data

How the results depend on the processing

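Of 108 values of the 9 tested genes under alternatives, 100 kept their direction and their side of the threshold. DESeq2 called Gria4 (log2 fold change -1.15). The direction turned for Gria2 without sham replicate 3 (0.030) and with DESeq2 without that library (0.022), for Grik2 without pSNL replicate 2 (-0.10), and for Grik5 when sham replicate 1 (-0.028), sham replicate 2 (-0.054), pSNL replicate 2 (-0.071) or pSNL replicate 3 (-0.017) was left out. With 1 library left out, log2 fold changes spanned -1.37 to -0.55 for Gria4, -0.72 to 0.03 for Gria2, -0.10 to 0.71 for Grik2, -0.071 to 0.12 for Grik5, -0.45 to -0.084 for Grik1, -0.45 to -0.20 for Grin1, -0.46 to -0.26 for Grm4, -0.24 to -0.038 for Grik4 and 0.058 to 0.27 for Grm7. The cause of these changes was not tested. The mean Grik1 share spanned 51.1% to 56.1% in sham and 44.3% to 53.3% in pSNL with 1 library left out, and that of Grik5 25.7% to 28.0% and 27.7% to 33.2%. The 51 genes called overall became 320 with DESeq2, 218 with DESeq2 without sham replicate 3, 89 with no filter, 111 with the replicate block and 5 to 217 with 1 library left out (21, 5 and 33 without sham replicates 1, 2 and 3; 217, 9 and 96 without pSNL replicates 1, 2 and 3). Correlations of deviations between sham and pSNL were 0.032, 0.011 and 0.123 for replicate numbers 1, 2 and 3. Between unlike numbers they were -0.105 to 0.104. These weak values cannot decide whether libraries with the same number share a factor, also because sham replicate 3 carries central tissue transcripts. The block called none of the members (Gria4 -1.02, edgeR adjusted p = 0.188). Depth limits Grik3 and Grik2, with 0 to 62 counts per library.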
